A study of Zea mays with 47 samples.

Results

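The 2 decarboxylases of C4 photosynthesis in maize leaves, NADP-dependent malic enzyme (NADP-ME, GRMZM2G085019) and phosphoenolpyruvate carboxykinase (PEPCK, GRMZM2G001696), were followed across 8 inbred lines and 3 heat levels. They were chosen by their gene IDs, with earlier results of these data known, and are 2 of the 17905 genes in the count table. The RefSeq gene table gives GRMZM2G085019 the names NADP-ME, ME1 and me3 and lists GRMZM2G001696 without a symbol.

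In C4 plants such as maize, CO2 is first bound in mesophyll cells by PEP carboxylase, and the resulting acids move to the bundle sheath around the veins. There a decarboxylase sets CO2 free next to Rubisco, and the remaining acid returns to the mesophyll. NADP-ME does this in the bundle sheath chloroplasts by turning malate into pyruvate, and is regarded as the main decarboxylase of maize. PEPCK works in the cytosol and turns oxaloacetate into PEP, and is regarded as a second route beside it. The leaf pieces sequenced here held both cell types, so the cell type in which a transcript was present could not be checked.

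Seedlings gave RNA from their youngest fully developed leaf, with leaf pieces of 5 plants pooled for each of 2 replications. The Flint lines were L012 and L043, classed as heat tolerant, and L017 and L023, classed as susceptible. The Dent lines were the tolerant S058 and S067 and the susceptible S070 and P040. The classes come from an earlier selection of these lines as seedlings, and each line is 1 inbred genotype. From the traits measured in its own experiment, the paper regarded S070 and P040 as susceptible and the other lines, L017 and L023 among them, as more tolerant. The day temperature was 25°C, 32°C or 38°C, and each heat level was a separate growth chamber experiment, so that heat level and experiment cannot be told apart. There were 16 libraries at 25°C, 15 at 32°C, where replicate 2 of L017 was not analysed here, and 16 at 38°C.

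Library totals ranged from 3687700 to 20642205 counts. NADP-ME and PEPCK had between 1705 and 15732 counts in every library, so counting error was at most 2.42% of a value and the spread between libraries was the larger source of error. The 11 genes above 1% of all counts held 76.5% to 88.1% of a library at 25°C, 60.8% to 79.0% at 32°C and 48.6% to 67.6% at 38°C. Values were therefore put on a common scale by TMM, the trimmed mean of M-values between libraries, and are given as TMM-scaled CPM, counts per library of standard size. Over 9510 genes, 44 of 47 libraries resembled their own line most. The library labelled P040 at 32°C, replicate 1, resembled S070, the library labelled S070 at 32°C, replicate 1, resembled P040, and the library labelled P040 at 25°C, replicate 1, resembled L017. They were kept under their labels, and results without them are given where they differ.

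With increasing heat levels PEPCK transcript fell by more than 1 on the log2 scale, and NADP-ME transcript fell less. Scaled PEPCK was 652 ± 202 CPM (SD, n = 16 libraries) at 25°C, 469 ± 201 (n = 15) at 32°C and 265 ± 72.8 (n = 16) at 38°C. Scaled NADP-ME was 628 ± 205 CPM at 25°C, 496 ± 167 at 32°C and 426 ± 138 at 38°C, over the same libraries.

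For PEPCK, the libraries at 25°C lay between 411 and 1035 CPM with a median of 622, and those at 38°C between 146 and 377 with a median of 282. The 2 heat levels did not overlap, and in all 8 lines both replicates at 38°C were below both at 25°C. For NADP-ME, the libraries at 25°C lay between 302 and 1174 CPM with a median of 588, and those at 38°C between 166 and 630 with a median of 474. These ranges overlapped widely, and the replicates of a line were clear of each other in 4 lines only, L012, L017, L043 and S070. At 32°C both genes spanned almost the whole range, from 114 to 816 CPM (median 507) in NADP-ME and from 97.0 to 831 CPM (median 424) in PEPCK, and the lowest library was P040 replicate 2 in both.

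**Figure D1:**
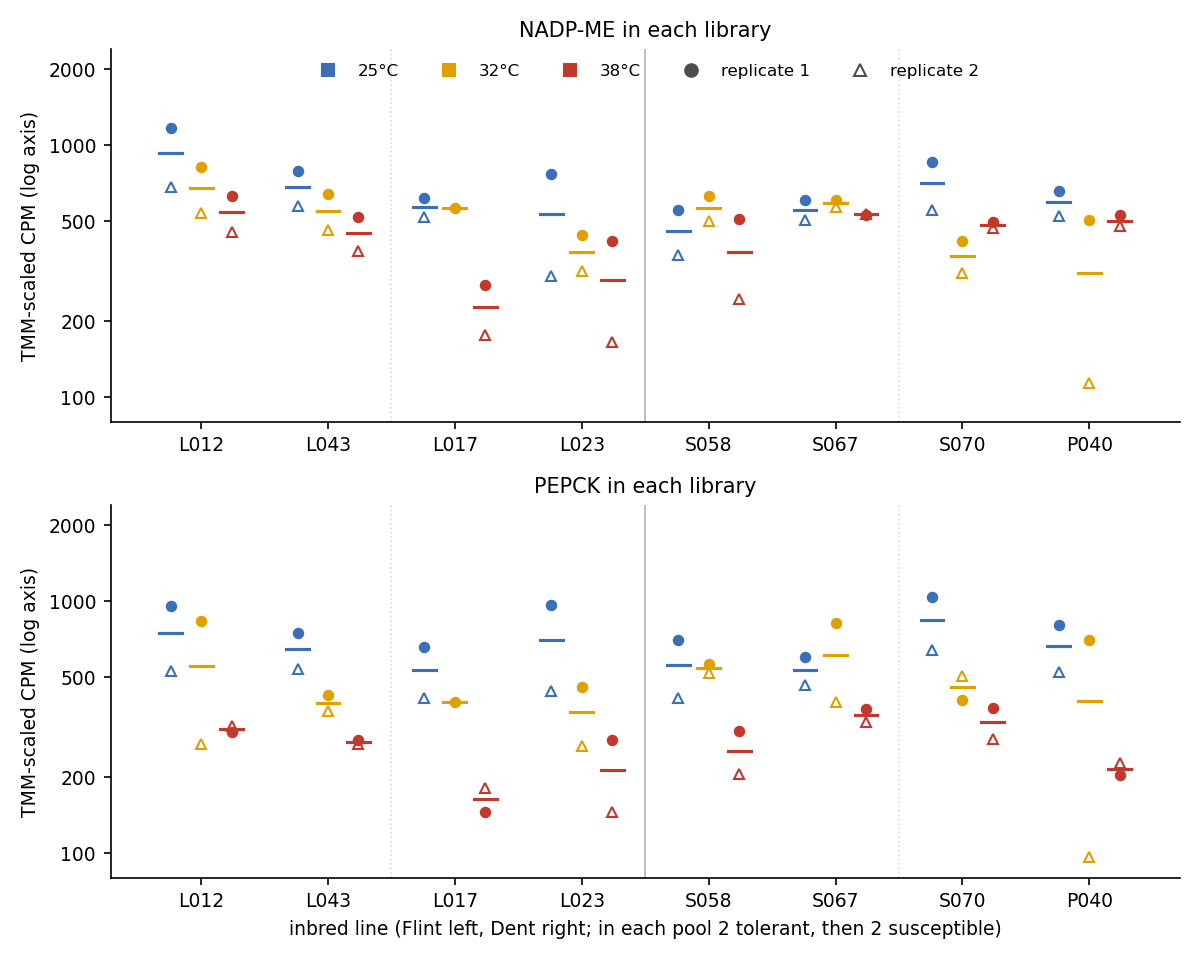
TMM-scaled CPM of NADP-ME (top) and PEPCK (bottom) in each library on a log axis, by inbred line, with colour for the heat level, filled circles for replicate 1, open triangles for replicate 2 and a bar at the mean of a line and heat level. PEPCK at 38°C lies below PEPCK at 25°C in every line, while NADP-ME overlaps in 4 of 8 lines, and P040 at 32°C replicate 2 is the lowest library in both panels.

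The heat response was fitted as the slope of log2 expression on the heat level, which was coded so that the slope is the log2 difference of the fitted values at 38°C and 25°C. Over all libraries the slope of PEPCK was -1.29 (standard error 0.19, 95% interval -1.67 to -0.90, adjusted p = 4.54e-07), and expression decreased by 59.0%. The slope of NADP-ME was -0.56 (standard error 0.18, interval -0.93 to -0.19, adjusted p = 0.0109), and expression decreased by 32.3%. Both adjusted p-values come from edgeR's quasi-likelihood test with Benjamini-Hochberg adjustment over all genes. Both genes thus passed the test as falling, as did 19.7% of all genes, and 3.21% of all genes had a lower slope than PEPCK and 15.6% a lower one than NADP-ME. A slope beyond 2 on the log2 scale, the further limit for overall heat responsive genes, was reached by 3.36% of all genes and by neither decarboxylase.

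The direction of both slopes holds relative to most other transcripts and not relative to library totals. With library totals and no TMM factor, the slopes were 1.30 for NADP-ME and 0.55 for PEPCK, but the median slope of all genes was then 1.86, against 0.075 with TMM. Relative to that median, NADP-ME was at -0.56 and PEPCK at -1.31 with library totals, and at -0.64 and -1.36 with TMM. Size factors of DESeq2 gave slopes of -0.55 and -1.27, and leaving out the 11 most abundant genes gave -0.59 and -1.31. The unscaled means of NADP-ME were 344, 441 and 855 CPM at the 3 heat levels, and those of PEPCK 364, 424 and 532 CPM. In pieces of whole leaf, fewer bundle sheath cells and less transcript per cell cannot be told apart.

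The response was then divided into its steps. From 32°C to 38°C PEPCK fell by 0.82 on the log2 scale (standard error 0.19, adjusted p = 0.000967, edgeR's quasi-likelihood test), a step at which 11.4% of all genes fell. In 5 lines, L017, L043, S058, S067 and S070, both replicates at 38°C were below those at 32°C. From 25°C to 32°C its change was -0.48 (standard error 0.19, adjusted p = 0.0492, same test), where 13.3% of all genes fell. This call lay at the threshold and was lost with DESeq2 size factors (adjusted p = 0.0560), without the 3 libraries that resembled another line (adjusted p = 0.0626), and on leaving out any of 30 of the 47 libraries singly. NADP-ME did not pass at either step, with a change of -0.34 (standard error 0.19, adjusted p = 0.174) from 25°C to 32°C and of -0.22 (standard error 0.19, adjusted p = 0.432) from 32°C to 38°C. A departure from linearity was called in 17.2% of all genes and in neither decarboxylase, with 0.22 (interval -0.10 to 0.55) for PEPCK and -0.04 (interval -0.37 to 0.29) for NADP-ME at 32°C.

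The ratio of the NADP-ME count to the PEPCK count in a library does not depend on its scaling. Because transcript lengths of the genome build used for counting were not at hand, the ratio is compared between libraries only and does not say which transcript is the more abundant. It ranged from 0.684 to 1.29 (median 0.972, 16 libraries) at 25°C, from 0.614 to 2.0 (median 1.11, 15 libraries) at 32°C and from 0.977 to 2.58 (median 1.55, 16 libraries) at 38°C. Above 1 were 8 of 16 libraries at 25°C, 9 of 15 at 32°C and 15 of 16 at 38°C.

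The mean ratio was higher at 38°C than at 25°C in each of the 8 lines, and in 7 of them, all but L017, both replicates at 38°C were above both at 25°C. In P040 the replicates had ratios of 0.821 and 1.0 at 25°C and of 2.58 and 2.09 at 38°C, the highest values of all lines. In L023 they were 0.797 and 0.684 at 25°C and 1.48 and 1.14 at 38°C. In L012 the ratio was above 1 already at 25°C, with 1.22 and 1.29, and was 2.07 and 1.42 at 38°C. In L017 the range of the replicates at 38°C, 1.91 and 0.977, overlapped that at 25°C, 0.940 and 1.26.

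**Figure D2:**
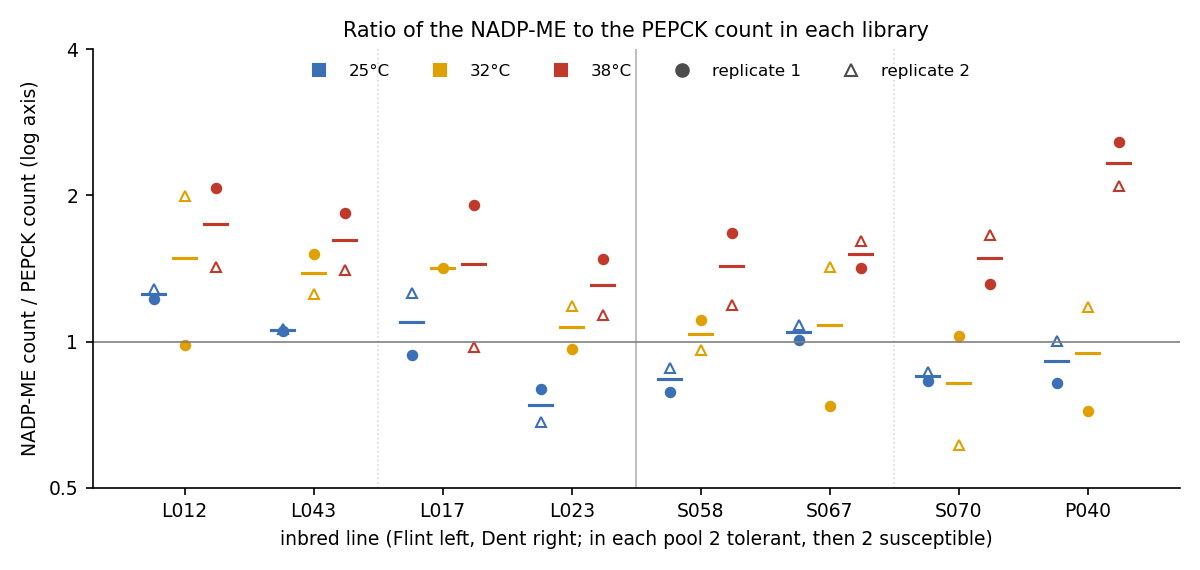
Ratio of the NADP-ME to the PEPCK count in each library on a log axis, by inbred line, with colour for the heat level, circles for replicate 1, triangles for replicate 2 and a bar at the mean. The ratio at 38°C lies above that at 25°C in all replicates of 7 lines, with L017 as the exception, and P040 at 38°C has the highest ratios, 2.58 and 2.09.

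The slope of the log2 ratio on the heat level was 0.70 ± 0.30 (SD, n = 8 lines), which is a 1.62-fold higher ratio at 38°C, and it was positive in 8 of 8 lines. An exact two-sided sign-flip test over the lines gave p = 0.00781, the smallest value 8 lines can give. It was 0.0234 adjusted over the 3 tests of the ratio slope in the design and 0.0729 adjusted over these and 11 further ratio tests added after the values were seen. The single slopes ran from 0.34 in L017 to 1.32 in P040. The mean slope was 0.90 in replicate 1 alone and 0.49 in replicate 2 alone. The change from 32°C to 38°C was 0.50 ± 0.44 (positive in 7 of 8 lines, exact p = 0.0156, adjusted p over the 14 tests 0.0729), and that from 25°C to 32°C was 0.21 ± 0.23 (positive in 6 of 8 lines, exact p = 0.0547, adjusted p = 0.153).

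The slope of the ratio was 0.29 lower in Flint than in Dent lines (exact permutation p = 0.200, adjusted p over the 3 tests 0.3). This difference was -0.17 without replicate 2 of L017 at 38°C, -0.49 in replicate 2 alone and -0.09 in replicate 1 alone. The slope was 0.23 higher in susceptible than in tolerant lines (exact permutation p = 0.343, adjusted p = 0.343). Without replicate 2 of L017 at 38°C the latter difference was 0.35, with an exact permutation p of 0.0286. At 32°C the log2 ratio was 0.48 higher in Flint than in Dent lines, with p = 0.0286 in the exact permutation test, the smallest that 4 against 4 lines allow, and 0.1 adjusted over the 14 tests. In the line pair with exchanged resemblance at 32°C, the ratio was 0.721 in replicate 1 and 1.18 in replicate 2 of P040, and 1.03 in replicate 1 and 0.614 in replicate 2 of S070. Between the 8 lines the log2 ratio differed by 0.76 from lowest (L023) to highest (L012) at 25°C (permutation p = 0.0140, adjusted p over the 14 tests 0.0729). At 32°C and 38°C the spread between lines was 0.84 at each heat level, with permutation p-values of 0.648 and 0.452.

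The slopes of the 2 genes were next examined in each line alone. All 16 slopes were negative with all libraries in the fit. The slope of NADP-ME turned positive, without a call, on leaving out replicate 1 of P040 at 25°C (0.040), replicate 2 of S058 at 38°C (0.23) or replicate 1 of S067 at 25°C (0.029), while that of PEPCK stayed negative without any single library. Those of PEPCK ran from -1.74 in L023 to -0.58 in S067, with a mean of -1.32 ± 0.38 (SD, n = 8 lines), and those of NADP-ME from -1.28 in L017 to -0.06 in S067, with a mean of -0.60 ± 0.40. No slope passed the test in a line alone. Of all genes, 0.067% passed as falling in L023, 0.0782% in L017, 0.223% in L043, 1.25% in L012, 1.31% in S067, 1.54% in S070 and 6.96% in S058. The count in P040 was 0 by the same edgeR test, although 2659 genes there had an unadjusted p under 0.05. Unadjusted p-values under 0.05 were reached by PEPCK in 6 lines and by NADP-ME in 1, L017. The lowest adjusted p was 0.0607 for PEPCK in S070 (edgeR's quasi-likelihood test), and without replicate 1 at 32°C, which resembled P040, it was 0.0435. Leaving out the single library of L017 at 32°C gave calls for both genes in L017, with adjusted p = 0.00741 for PEPCK and 0.0197 for NADP-ME.

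**Figure D3:**
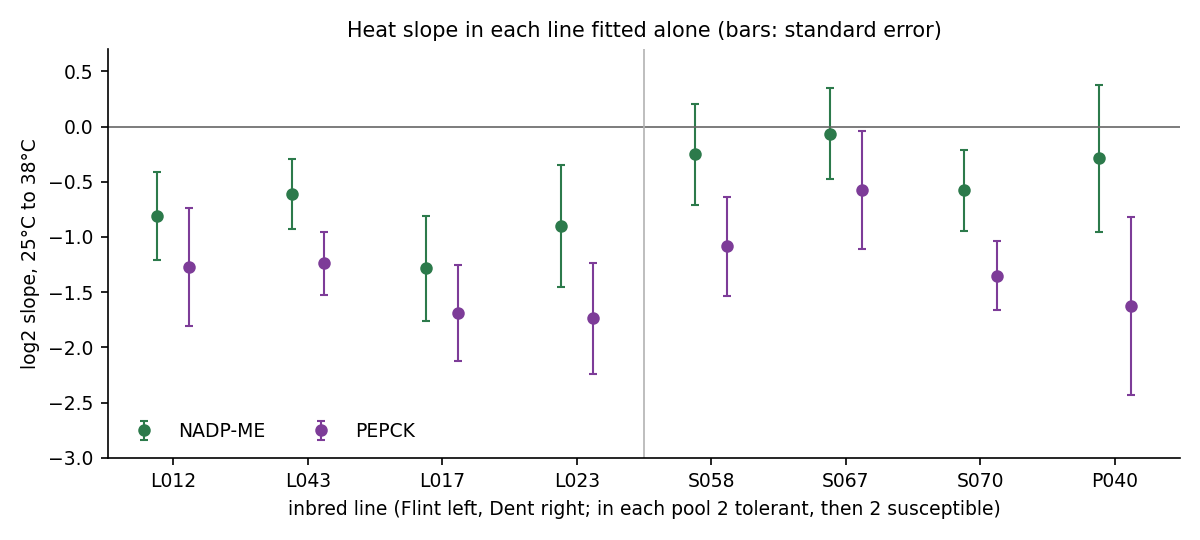
Log2 slope from 25°C to 38°C of NADP-ME (green) and PEPCK (purple) in each inbred line fitted alone, with standard errors as bars. With all libraries all 16 slopes are negative, those of NADP-ME in P040, S058 and S067 turning positive without 1 library each, and PEPCK lies below NADP-ME in every line, from a pair of -0.06 and -0.58 in S067 to one of -0.29 and -1.62 in P040.

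When all lines were fitted together with their own slopes, these did not pass the test for a difference (adjusted p = 1 for both genes, edgeR's quasi-likelihood test, with 0.173% of all genes passing). The slope of NADP-ME was lower in Flint than in Dent lines by 0.60 (interval of the difference -1.32 to 0.13, adjusted p = 0.617 over all genes), where 0.162% of all genes passed. Taken over line slopes, which were -1.29 to -0.60 in Flint and -0.58 to -0.05 in Dent lines, the pools did not overlap. The exact permutation test gave p = 0.0286, the smallest possible, and 0.0571 adjusted over 4 tests of this kind. Separation was narrow, between L043 and S070, and on leaving out single libraries the exact p ranged from 0.0286 to 0.171, with 9 of 47 omissions raising it.

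For PEPCK, the slope was lower in susceptible than in tolerant lines by 0.56 (interval -1.36 to 0.23, adjusted p = 1 over all genes by edgeR's quasi-likelihood test, with 0.00559% of all genes passing). The slopes over lines did not overlap here either, with -1.72 to -1.35 in susceptible and -1.24 to -0.57 in tolerant lines (exact permutation p = 0.0286, adjusted p over the 4 tests 0.0571). Without the 3 libraries that resembled another line, the difference was -0.44 with an exact permutation p of 0.0857, and on leaving out single libraries the exact p ranged from 0.0286 to 0.114. For the other contrasts, the slope of NADP-ME differed by -0.33 (interval -1.06 to 0.39) between susceptible and tolerant lines, and that of PEPCK by -0.31 (interval -1.11 to 0.48) between Flint and Dent lines, with exact permutation p-values of 0.229 and 0.286. Single libraries moved these differences, from -0.50 (without L023 at 38°C replicate 1) to -0.15 (without L023 at 25°C replicate 1) and from -0.43 to -0.16 (without the same libraries).

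The level of a line was compared with that of the other lines within each heat level. L012 had the highest mean of NADP-ME at all 3 heat levels, with 928 ± 348 CPM (SD, n = 2) at 25°C, 678 ± 195 at 32°C and 542 ± 125 at 38°C. The lowest line was S058 at 25°C (458 ± 131 CPM), P040 at 32°C (311 ± 277) and L017 at 38°C (228 ± 72.2). From low to high at 38°C, NADP-ME ran L017, L023, S058, L043, S070, P040, S067 and L012, and the replicates of 6 of the 7 neighbouring pairs in this order overlapped. PEPCK was highest in S070 at 25°C (839 ± 278 CPM) and in S067 at 32°C (610 ± 297) and 38°C (353 ± 30.1). It was lowest in S067 at 25°C (534 ± 95.3 CPM), in L023 at 32°C (362 ± 134) and in L017 at 38°C (164 ± 25.0). S067 thus ranked lowest at 25°C and highest at 38°C. At 25°C, however, L017 was almost equal to it (534 ± 174 CPM), and the replicates of all 7 neighbouring pairs overlapped. From low to high at 38°C, PEPCK ran L017, L023, P040, S058, L043, L012, S070 and S067, again with overlap in 6 of 7 neighbouring pairs.

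The highest line had 2.02, 2.18 and 2.37 times the NADP-ME level of the lowest at 25°C, 32°C and 38°C, and 1.57, 1.68 and 2.15 times the PEPCK level. None of these differences between lines passed edgeR's quasi-likelihood test (adjusted p = 0.666, 0.402 and 0.272 for NADP-ME and 0.939, 0.881 and 0.631 for PEPCK), a test passed by 27.5%, 29.3% and 38.8% of all genes. This fit had no term for the replicate number, and with one the difference of NADP-ME was called at 32°C (adjusted p = 0.0383) and 38°C (adjusted p = 0.0135) by the same test. Without P040 replicate 1 at 32°C, which resembled S070, the difference at 32°C went from 1.13 to 2.57 on the log2 scale in NADP-ME and from 0.75 to 2.65 in PEPCK. It was then called in both genes (adjusted p = 0.0175 and 0.0384), and P040 was then represented by replicate 2 alone, assumed to vary like the other lines. This replicate had 114 CPM of NADP-ME and 97.0 CPM of PEPCK, a TMM factor of 2.17 against a median of 0.881 at 32°C, and 60.8% of its counts in the 11 most abundant genes, the lowest share at that heat level. Leaving it out, NADP-ME and PEPCK kept a negative overall slope.

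Over the 8 line means the 2 genes were correlated within heat levels, with Pearson's r = 0.62 at 25°C (exact permutation p = 0.0975), 0.78 at 32°C (exact p = 0.0218, 0.0327 adjusted over the 3 heat levels) and 0.84 at 38°C (exact p = 0.00823, 0.0247 adjusted). Spearman's rho was 0.57, 0.71 and 0.76, with exact permutation p-values of 0.151, 0.0576 and 0.0368 and adjusted values of 0.151, 0.0864 and 0.0864. Without the 2 lines farthest from the median of NADP-ME, r was 0.49 at 25°C, 0.66 at 32°C (without P040 and S070) and 0.43 at 38°C (without L017 and L023), so that the relation at 38°C rested on these 2 lines. The 2 genes of a library share its scaling factor.

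Both genes differed between the replicate numbers. NADP-ME was higher in replicate 1 than in replicate 2 in 22 of 23 pairs of the same line and heat level, in 8 of 8 at 25°C, 7 of 7 at 32°C and 7 of 8 at 38°C. The exception was S067 at 38°C, with 529 CPM in replicate 1 and 535 in replicate 2. PEPCK was higher in replicate 1 in 19 of 23 pairs, in 8 of 8 at 25°C, 6 of 7 at 32°C and 5 of 8 at 38°C. The median difference was 0.47 on the log2 scale for NADP-ME and 0.56 for PEPCK, and the largest were 2.15 and 2.86, both in P040 at 32°C.

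Beside the heat slope, replicate 2 was lower than replicate 1 by 0.51 on the log2 scale in NADP-ME (-0.51, standard error 0.14, adjusted p = 0.0387) and by 0.56 in PEPCK (-0.56, standard error 0.13, adjusted p = 0.0195), in edgeR's quasi-likelihood test, which called 1.55% of all genes. Over all genes the median was 11 of 23 pairs with the higher value in replicate 1. At least 22 pairs were reached by 0.430% of genes and at least 19 by 3.8%. Without TMM factors replicate 1 was higher in 22 pairs for NADP-ME, with S070 at 38°C as the exception in place of S067, and in 20 pairs for PEPCK. Without the pairs that hold a library resembling another line, the counts were 19 and 17 of 20. Replicate 1 had the higher total in 7 of 23 pairs and the higher share of the 11 most abundant genes in 6 of 23, and the part of either in the difference was not tested. Which blocks of plants made up each pool was not given in the sources used here. The paper reports several barcoded samples per sequencing lane, and the part of the lane in the difference was not tested.

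**Figure D4:**
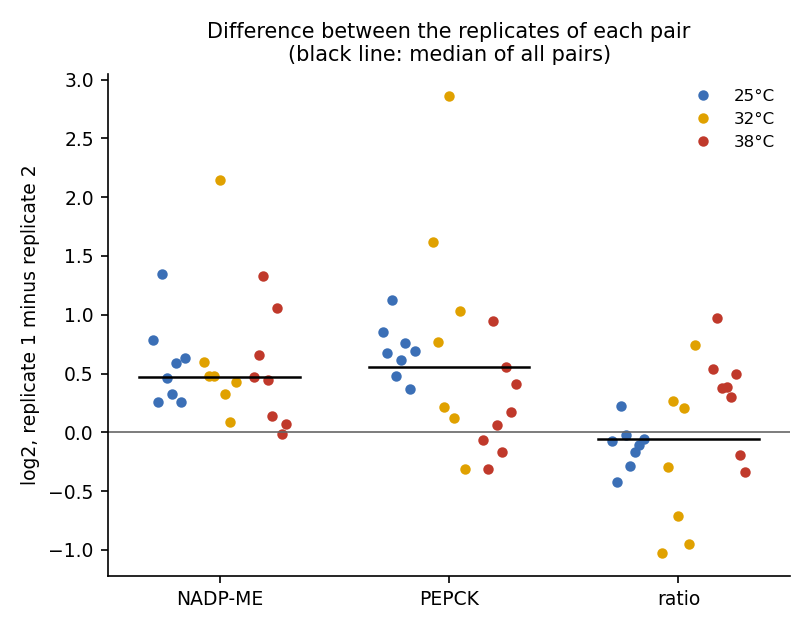
Difference between replicate 1 and replicate 2 on the log2 scale for NADP-ME, PEPCK and their ratio, with 1 point for each of 23 pairs of the same line and heat level, colour for the heat level and a black line at the median. NADP-ME lies above 0 in 22 pairs and PEPCK in 19, while the ratio lies above 0 in 10.

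The ratio of the 2 counts was higher in replicate 1 in 10 of 23 pairs, with a median difference of -0.06 on the log2 scale. It was higher in replicate 1 in 1 of 8 pairs at 25°C, 3 of 7 at 32°C and 6 of 8 at 38°C. The signed median difference of the ratio was thus smaller than that of either gene. Its single differences ran from -1.02 to 0.97, so that values of opposite sign offset each other in this median.

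The other genes of the C4 pathway were described for comparison, from lists of 15 genes with a RefSeq name for their role. Of these 15, 3 rose, 5 fell and 7 were not called, against 24.3% rising and 19.7% falling over all genes. This split was the same with DESeq2 size factors and without the 11 most abundant genes, while with library totals alone all 15 rose. Relative to the median of all genes, 11 of 15 were lower under each of these scalings. None of these 15 had a slope below that of PEPCK. Of 9 further list IDs without a RefSeq name for their role, 3 fell, 1 rose and 5 were not called. The lowest of these, GRMZM2G146677, had a slope of -1.65 (adjusted p = 3.15e-06), below that of PEPCK. Values in this comparison are overall log2 slopes with TMM, and adjusted p-values are those of edgeR's quasi-likelihood test over all genes.

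Among the enzymes of the mesophyll part of the cycle, 1 of 5 fell. This was pyruvate orthophosphate dikinase (GRMZM2G306345), which regenerates PEP from pyruvate, with a slope of -0.89 (standard error 0.13, adjusted p = 2.38e-07). PEP carboxylase (GRMZM2G083841), which makes the first C4 acid, had -0.33 (standard error 0.18, adjusted p = 0.134), and NADP-malate dehydrogenase (GRMZM2G129513), which makes the malate used by NADP-ME, had -0.13 (standard error 0.14, adjusted p = 0.499). A carbonic anhydrase (GRMZM2G348512) and the regulatory protein of the dikinase (GRMZM2G131286) had -0.40 and -0.02 and did not pass. The median slope of these 5 genes was -0.33, against 0.075 for all genes.

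Of the transporters, which carry C4 acids between compartments, and the aminotransferase on the same list, 2 rose and 2 fell. The oxoglutarate/malate transporter gene OMT1 (GRMZM2G383088) rose from 3.39 ± 1.62 to 8.37 ± 6.08 CPM (SD, n = 16 libraries), with a slope of 1.31 (standard error 0.27, adjusted p = 9.85e-05). The dicarboxylate transporter genes DCT2 (GRMZM2G086258), which is known for malate uptake into bundle sheath chloroplasts, and DCT1 (GRMZM2G040933) fell with slopes of -0.73 (standard error 0.30, adjusted p = 0.0405) and -0.66 (standard error 0.21, adjusted p = 0.010). DCT2 was 26.7 ± 20.1 CPM at 25°C, 31.5 ± 10.9 at 32°C and 15.6 ± 7.70 at 38°C, so its mean was highest at 32°C. DCT1 was low throughout, with 3.33 ± 1.39, 1.89 ± 0.754 and 2.09 ± 1.13 CPM. The alanine aminotransferase gene alt (GRMZM2G088064) rose with a slope of 1.03 (standard error 0.36, adjusted p = 0.0163). Its levels were low as well, with 2.69 ± 1.63, 2.01 ± 1.35 and 5.38 ± 3.74 CPM at 25°C, 32°C and 38°C. It shares its RefSeq name with other gene models, so that reads may be divided between them.

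Of the bundle sheath genes downstream of CO2 release, Rubisco activase rca1 (GRMZM2G162200) fell with a slope of -1.24 (standard error 0.21, adjusted p = 5.66e-06), close to that of PEPCK. A second activase gene, rca3 (GRMZM2G162282), rose with 1.09 (standard error 0.34, adjusted p = 0.00792), and the Rubisco small subunit genes GRMZM2G098520 and GRMZM2G113033 had -0.29 and 0.47 and did not pass. These small subunit genes were higher in replicate 1 in 22 of 23 pairs each and rca1 in 23 of 23, and over the 15 genes the count ran from 13 to 23 pairs.

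**Figure D5:**
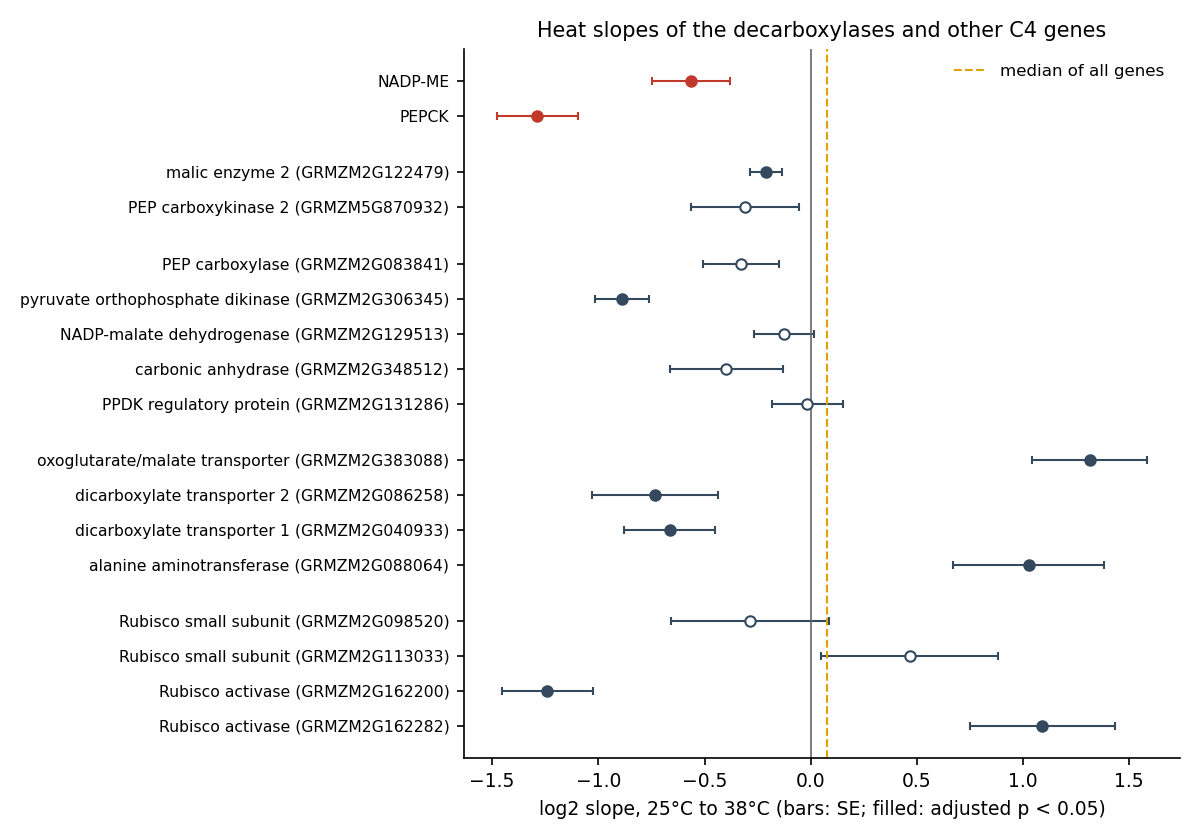
Overall log2 slope from 25°C to 38°C of the decarboxylases (red) and of 15 other named C4 genes (blue), grouped as paralogs, mesophyll enzymes, transport and transamination, and carbon fixation, with standard errors as bars and filled points for an adjusted p under 0.05. Of the genes plotted PEPCK has the lowest slope, -1.29, followed by rca1 with -1.24, and the dashed line marks the median of all genes at 0.075.

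Related genes of the same enzymes were also counted. Malic enzyme me2 (GRMZM2G122479) was 22.5 ± 3.40 CPM (SD, n = 16 libraries) at 25°C and 19.5 ± 2.56 at 38°C, with a slope of -0.21 (standard error 0.08, adjusted p = 0.0199). The PEPCK gene pck2 (GRMZM5G870932) was 31.8 ± 13.2 CPM at 25°C and 25.6 ± 15.4 at 38°C, with a slope of -0.31 (standard error 0.26, adjusted p = 0.339). GRMZM2G159724 was listed as a malic enzyme but has no name in the RefSeq table. It fell from 36.3 ± 7.71 CPM at 25°C to 18.3 ± 5.22 at 38°C, with a slope of -1.01 (standard error 0.17, adjusted p = 4.26e-06). These levels are not corrected for transcript length and are compared between heat levels only. Reads could be divided between such copies in counting, which leaves their values uncertain. Another malic enzyme gene, me4 (GRMZM2G118770), was not analysed here.

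Genes with a pattern like that of each decarboxylase were sought over the 24 means of line and heat level, among 5813 genes with a mean of at least 2 log2 CPM, as a description without a test. For NADP-ME the nearest were GRMZM2G124321 (r = 0.89), GRMZM2G462613 (r = 0.87), GRMZM2G178192 (r = 0.86), which RefSeq names adk1, GRMZM2G135283 (r = 0.86) and GRMZM2G010349 (r = 0.85). PEPCK was at rank 29 for NADP-ME with r = 0.77, and r was 0.78 after the mean of each heat level had been taken out. For PEPCK the nearest were GRMZM2G009320 (r = 0.91), GRMZM2G175676 (r = 0.90), GRMZM2G064537 (r = 0.88), GRMZM2G005859 (r = 0.87) and GRMZM2G045581 (r = 0.87), with NADP-ME at rank 160. Within heat levels these 5 had r between 0.51 and 0.68, lower than the 0.78 of NADP-ME. All means of a library pair share its scaling.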

How the data were processed

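Total leaf RNA depleted of rRNA was sequenced as single-end reads in 47 libraries. Reads were mapped by the authors to B73 RefGen_v3 (TopHat2 2.0.3 in the submitters' processing notes) and counted per protein-coding nuclear gene with easyRNASeq, and the deposited values are raw counts for 17905 genes, and all 47 columns matched a label. Counts were scaled by TMM and tested with edgeR 4.0.16 (quasi-likelihood, prior count 0.125) in R 4.3.3, with the heat level coded 0, 7/13 and 1 and adjusted p under 0.05 as threshold. The filter of 2 CPM in 2 libraries removed no gene. Scaled CPM in log2 had 0.5 counts added, as had each count of the ratio. Exact tests were run in Python 3.11.15, and 100000 resamples were drawn for the comparison of the ratio between lines. The scripts were tested on simulated data. DESeq2 1.42.0 served as an alternative, beside other scalings, filters, covariates and omitted libraries or lines. Exact tests measure the spread over lines, and edgeR p-values the residual spread between pools of 5 plants, which in the overall fit includes differences between lines. Members and lists were chosen with earlier results of these data known. Genes named were the 2 decarboxylases, list members with a RefSeq name for their role and the 5 genes most correlated with each decarboxylase. Of 17905 IDs, 12358 matched the RefSeq table. The 9 list IDs without a RefSeq name for their role are given as counts, by the lowest slope and by the malic enzyme among them. RefSeq coordinates are on another assembly, so none are given, and no sequences of these genes were at hand.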

Additional observations from a re-analysis of the deposited data

Results flagged for a closer look

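Dixon's test was applied to both genes and their log2 ratio in the Flint and the Dent libraries of each heat level, which are 18 groups, of which chance flags about 1 in 20. It picked out 3 values. In the Dent libraries at 32°C, P040 replicate 2 stood apart from the other 7 in both genes, with 6.84 log2 CPM of NADP-ME and 6.60 log2 CPM of PEPCK. In the Dent libraries at 38°C, S058 replicate 2 had the lowest NADP-ME, 7.94 log2 CPM, with the nearest library at 8.88. No value of the ratio was picked out.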

How the results depend on the processing

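The overall slopes passed the test under every alternative run and kept their sign in all but the run with library totals. There they turned positive, with 1.30 for NADP-ME (adjusted p = 5.96e-09) and 0.55 for PEPCK (adjusted p = 0.0066) in edgeR's quasi-likelihood test. With library totals 17031 genes passed in place of 7887. Leaving out 1 library at a time gave slopes from -0.61 to -0.48 for NADP-ME and from -1.33 to -1.23 for PEPCK, and the DESeq2 test gave -0.55 and -1.27. With a filter of 10 CPM in 2 libraries, 4225 genes passed. The mean slope of the log2 ratio lay between 0.49 (replicate 2 alone) and 0.90 (replicate 1 alone) on leaving out libraries or replicate numbers. The exact sign-flip p over lines ran from 0.00781 to 0.0234. Leaving out single libraries moved the slope of NADP-ME across 0 in P040 (-0.55 to 0.040), S058 (-0.64 to 0.23) and S067 (-0.22 to 0.029), none of them called, and without the libraries resembling another line it was 0.074 in P040. The departure of NADP-ME from linearity, not called, then ran from -0.11 to 0.038. For the levels of lines, 23 of 47 libraries were drawn for omission. With the replicate block the slopes were -0.55 for NADP-ME and -1.24 for PEPCK, that of the ratio was 0.70, and only the calls of NADP-ME between lines given with the levels changed. Of 253 correlations of replicate differences between groups, 61.3% exceeded 0.1 (median 0.15, range -0.20 to 0.42). The limit chosen for pairing was all of them above 0.1, and no label ties a number to a shared block, so the numbers were not taken as pairs. A shared block is not excluded by this. Counting error was at most 2.42% of a value.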
